A study of Mus musculus with 161 samples.

Results

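IL-4 was given for 72 h to macrophages that had first been driven into the M1 state, and the cells were compared with cultures that received base media over the same 72 h. The comparison rested on 6 of the 145 bulk RNA-seq libraries of the series, chosen by their labels: 3 libraries of the switch from M1 stimuli to IL-4 (M1 → M2) and 3 libraries of the switch from M1 stimuli to base media (M1 → M0). All cells were bone marrow-derived macrophages (BMDMs), which are bone marrow cells of C57BL/6J mice grown out with macrophage colony stimulating factor (MCSF). M1 → M2 cells received 100 ng/mL lipopolysaccharide (LPS) plus 25 ng/mL IFN-γ for 24 h, were washed, and were then kept in 25 ng/mL IL-4 for 72 h. M1 → M0 cells received the same LPS plus IFN-γ for 24 h and the same wash, and were then kept for 72 h in base media with MCSF and no polarizing cytokine. For reference, M2 → M2 cells (3 libraries) were kept in IL-4 before and after the wash, and M0 cells (4 libraries) were kept in base media throughout, and both were also collected at 96 h in all. The question was which genes IL-4 moved in cells with an M1 past, and how far those genes stood from their levels in cells that had seen only IL-4. Each replicate was a culture of MCSF-grown marrow cells, so the values describe this culture model and not tissue macrophages.

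IL-4 binds a receptor made of the IL-4 receptor alpha chain and the common gamma chain. JAK kinases on the receptor then phosphorylate STAT6, which dimerizes, enters the nucleus and binds DNA. In mouse macrophages this pathway is known for turning on arginase, chitinase-like proteins, resistin-like molecules and lectin receptors, the set of genes called M2 or alternative activation. LPS acts through Toll-like receptor 4 and IFN-γ through its own receptor, and together they turn on nitric oxide synthase, chemokines and interferon-stimulated genes, the M1 set.

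Expression was given as FPKM, fragments counted per transcript length and library size, for 8307 genes. Summed FPKM lay between 418816 and 457510 in the M1 → M2 libraries and between 390168 and 403823 in the M1 → M0 libraries, inside the range of 354027 to 710082 over all 145 libraries. The read depth behind these values is unknown, so no counting error can be given. Checked against the macrophage label, Csf1r, the MCSF receptor, stood at 266, 282 and 251 FPKM in M1 → M2 cells and 254, 268 and 245 FPKM in M1 → M0 cells, and Cd68, a lysosomal macrophage marker, between 1102 and 1546 FPKM over the 6 libraries. Fibroblast markers summed to 1.68 to 7.24 FPKM in M1 → M2 cells and 1.88 to 5.16 FPKM in M1 → M0 cells. The neutrophil genes S100a9, Ngp and Retnlg were listed at 0 in all 6 libraries, but other members of their list were not. The whole list of neutrophil and precursor markers summed to 52.4, 26.1 and 20.9 FPKM in M1 → M2 cells. In M1 → M0 cells it summed to 41.9, 17.7 and 17 FPKM, so replicate 1 was the highest library of each group. Replicate 1 stood apart from replicates 2 and 3 within both groups, most visibly in cell cycle genes, so results that rest on it are also given without it.

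After 72 h, 703 genes were higher and 702 genes were lower in M1 → M2 than in M1 → M0 cells at an adjusted p below 0.05, which is 8.46% and 8.45% of the genes tested. The test was limma on log2(FPKM + 1) with one mean per condition over all libraries and Benjamini-Hochberg adjustment over all 8307 genes. All log2 differences below are on this scale, which understates the change of genes near 1 FPKM. Of the genes higher by the test, 208 differed by at least 2-fold and 48 by at least 4-fold. Of the genes lower by the test, 254 differed by at least 2-fold and 25 by at least 4-fold. The libraries of the 2 groups did not overlap for 661 of the higher and 533 of the lower genes, against a background in which 18.8% of all genes were higher and 14.5% lower without overlap. In the fit with replicate number as a block, 1036 genes were higher and 920 lower, and all 1405 genes called without the block were called in it.

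**Figure D1:**
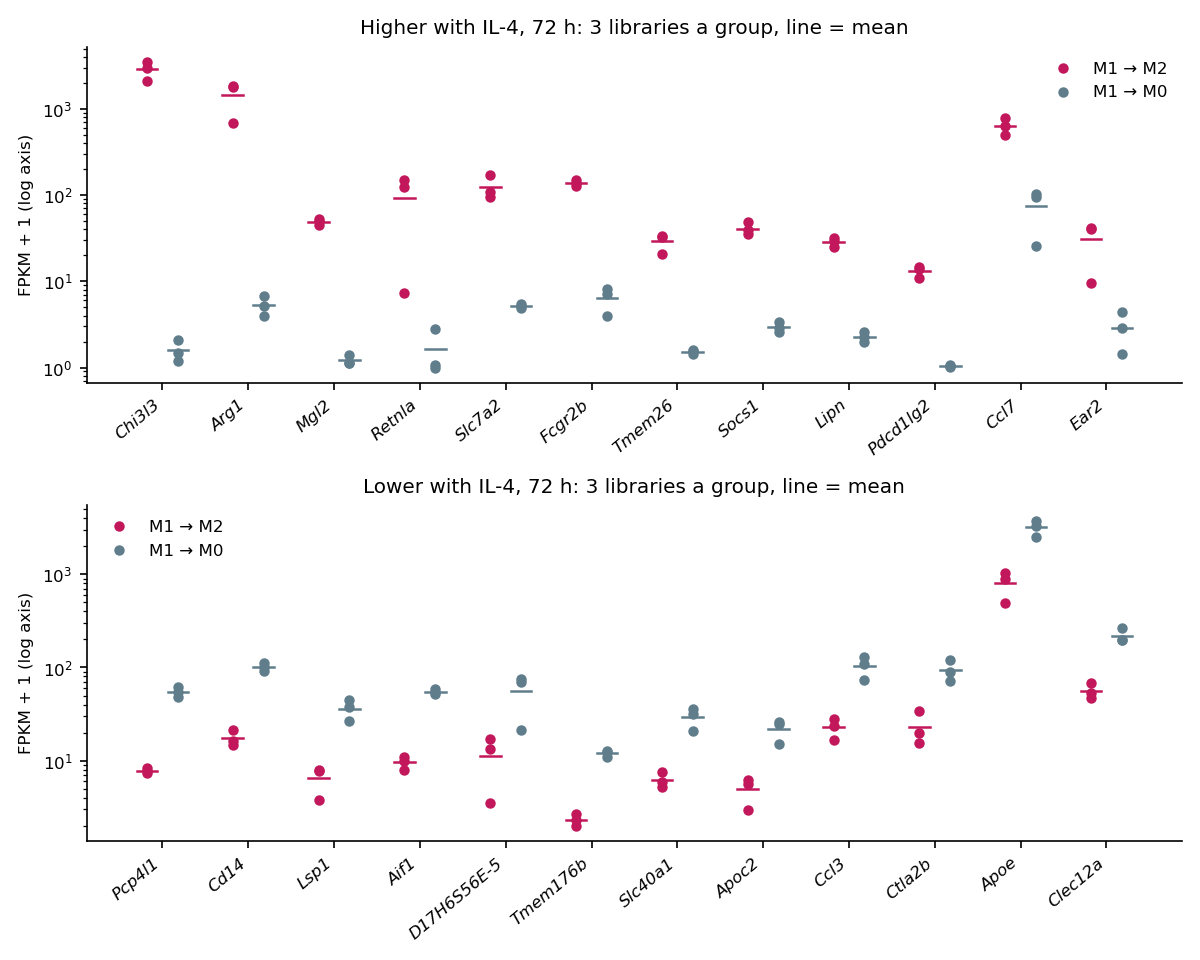
Expression of the 12 genes with the largest increase and the 12 with the largest decrease in M1 → M2 cells, among genes whose libraries did not overlap. Values are FPKM + 1 on a log axis. Each of the 3 M1 → M2 and 3 M1 → M0 libraries has 1 point, and a line marks the group mean. The points of the 2 groups do not overlap because the 24 genes were chosen for that. Chi3l3 shows the widest gap, with a log2 difference of 10.82.

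The largest increases included known effectors of alternative activation. Chi3l3, which encodes the secreted chitinase-like protein Ym1, stood at 3474, 2985 and 2132 FPKM in the M1 → M2 libraries, against 1.09, 0.475 and 0.204 FPKM in the M1 → M0 libraries. It was near the bottom of the scale in every M1 → M0 culture and high in every M1 → M2 culture, a log2 difference of 10.82 (SE 0.41, adjusted p = 1.28e-43). Arg1, the arginase that converts arginine to ornithine and urea, stood at 687, 1867 and 1772 FPKM in M1 → M2 cells, against 3, 5.84 and 4.17 FPKM in M1 → M0 cells. Its log2 difference was 7.98 (SE 0.54, adjusted p = 3.44e-24), and replicate 1 was the lowest library of each group. Slc7a2, a transporter that brings arginine into the cell, stood at 171, 95.1 and 108 FPKM in M1 → M2 cells, against 4.49, 3.9 and 4.16 FPKM in M1 → M0 cells (log2 difference 4.55). The lectin receptor gene Mgl2 stood at 49.1, 51.2 and 43.5 FPKM in M1 → M2 cells, against 0.133, 0.134 and 0.388 FPKM in M1 → M0 cells (log2 difference 5.33). These genes rose in every M1 → M2 library, with gaps far wider than the spread among replicates.

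Retnla, the secreted resistin-like molecule alpha, was uneven among cultures. It stood at 6.33, 147 and 122 FPKM in M1 → M2 cells, against 1.8, 0 and 0.0589 FPKM in M1 → M0 cells, so replicate 1 of the M1 → M2 group was far below its group mates while still above every M1 → M0 library. Its log2 difference was 5.15 (SE 0.66, adjusted p = 6.34e-10), 6.55 without that library and 4.38 without M1 → M2 replicate 2. Ear2, a ribonuclease of the eosinophil-associated family, had 8.64, 39.8 and 40.3 FPKM in M1 → M2 cells, against 0.431, 1.88 and 3.37 FPKM in M1 → M0 cells. Its log2 difference was 3.27, and 3.97 without M1 → M2 replicate 1. The related genes Chi3l4 and Ear11 were listed at 0 in all 3 M1 → M0 libraries: Chi3l4 had 3.39, 3.16 and 2.27 FPKM in M1 → M2 cells and Ear11 had 0.352, 3.28 and 4.54 FPKM. At these low levels Ear11 passed the test with an added 1 FPKM but not with 10 FPKM (adjusted p = 0.303), nor in a fit of the 6 libraries alone (0.0807). Reads can be shared between Chi3l3 and Chi3l4 and between Ear genes, so the split within each family is uncertain.

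The 12 largest increases, taken among genes whose libraries did not overlap, also held surface and secreted immune regulators. Fcgr2b, the inhibitory receptor for IgG, stood at 137, 148 and 128 FPKM in M1 → M2 cells, against 2.98, 7.2 and 6.04 FPKM in M1 → M0 cells (log2 difference 4.50). Pdcd1lg2, which encodes the PD-1 ligand PD-L2, stood at 13.7, 12.9 and 9.99 FPKM in M1 → M2 cells, against 0.0588, 0.0444 and 0.0175 FPKM in M1 → M0 cells (log2 difference 3.66). Ccl7, a chemokine that draws monocytes, stood at 502, 633 and 785 FPKM in M1 → M2 cells, against 24.6, 94 and 101 FPKM in M1 → M0 cells. Its log2 difference was 3.32, and 2.68 without M1 → M0 replicate 1, the lowest library. Tmem26, a membrane protein gene, stood at 19.5, 32.1 and 32.4 FPKM in M1 → M2 cells, against 0.539, 0.44 and 0.588 FPKM in M1 → M0 cells (log2 difference 4.22). Lipn, of the acid lipase family, stood at 28.6, 30.9 and 24.1 FPKM in M1 → M2 cells, against 0.953, 1.26 and 1.61 FPKM in M1 → M0 cells (log2 difference 3.67). These 5 genes were chosen for having no overlap between the groups, so its absence is not a further result.

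STAT6 dimers are known to bind TTC and GAA spaced by 4 bases, so the RefSeq promoter windows of these genes (mouse build GRCm38.p6) were searched for TTCNNNNGAA in the 250 bases before the start. The motif reads the same on both strands, and with its spacing of 4 bases it does not match a site with a spacing of 3. Of the 12 genes with the largest increase 9 had a window in the table, and 3 of those held the motif: Retnla, Tmem26 (at 2 places) and Pdcd1lg2. The lines below show each match in capitals with its 20 flanking bases on either side, since these are the promoters of IL-4-responsive genes of the comparison that carry the letters.
Retnla, chr16:48842444-48842493, plus strand, motif 145 bases before the start: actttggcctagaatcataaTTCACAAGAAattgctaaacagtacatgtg
Tmem26, chr10:68723499-68723548, plus strand, motif 227 bases before the start: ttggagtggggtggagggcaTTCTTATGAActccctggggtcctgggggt
Tmem26, chr10:68723685-68723734, plus strand, motif 41 bases before the start: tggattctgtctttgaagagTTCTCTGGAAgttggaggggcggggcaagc
Pdcd1lg2, chr19:29410817-29410866, plus strand, motif 82 bases before the start: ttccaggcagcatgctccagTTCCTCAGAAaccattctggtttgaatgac
Over all 32851 promoter windows of the table, 1923 (5.85%) held the motif. Among the 703 genes higher in M1 → M2 cells, 555 had a window and 41 of them (7.39%) held it. Among the 702 lower genes, 546 had a window and 33 (6.04%) held it, and among the 6902 genes called in neither direction, 5376 had a window and 307 (5.71%) held it. The shares are a description of letters in a window and were not tested. Arg1, Slc7a2 and Ccl7 had no entry in the table.

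Inhibitors of cytokine receptors and the kinase gene Jak2 rose, and Stat6 did not pass the test. Stat6 stood at 81.5, 66.7 and 66.9 FPKM in M1 → M2 cells, against 84.9, 69.6 and 60.6 FPKM in M1 → M0 cells, a log2 difference of 0.01 (SE 0.10, adjusted p = 0.986). Il4ra, the IL-4 receptor alpha chain, stood at 16.6, 16.1 and 13 FPKM in M1 → M2 cells, against 18.3, 23 and 20.1 FPKM in M1 → M0 cells, a log2 difference of -0.40 (SE 0.27, adjusted p = 0.381). Every M1 → M2 library was below every M1 → M0 library, and Il4ra passed the test with replicate blocks in a fit of the 6 libraries (adjusted p = 0.0411) and with replicate 1 left out of every condition (log2 difference -0.54, adjusted p = 0.0183). Of the 16 genes on the receptor and signalling list, 4 rose and 1 fell, where 8.46% of all genes were higher and 8.45% lower by the test. Socs1, which blocks JAK kinases, stood at 47.2, 34.2 and 38.3 FPKM in M1 → M2 cells, against 1.58, 1.87 and 2.36 FPKM in M1 → M0 cells (log2 difference 3.80, adjusted p = 3.23e-14). Cish and Socs2, inhibitors of the same family, rose by 3.01 and 1.69, and Jak2 rose by 1.44 on the log2 scale. Ptpn6, a phosphatase that dampens receptor signalling, stood at 89.6, 73.9 and 66.6 FPKM in M1 → M2 cells, against 141, 123 and 119.8 FPKM in M1 → M0 cells, and was the member that fell (log2 difference -0.74, adjusted p = 0.00326).

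**Figure D2:**
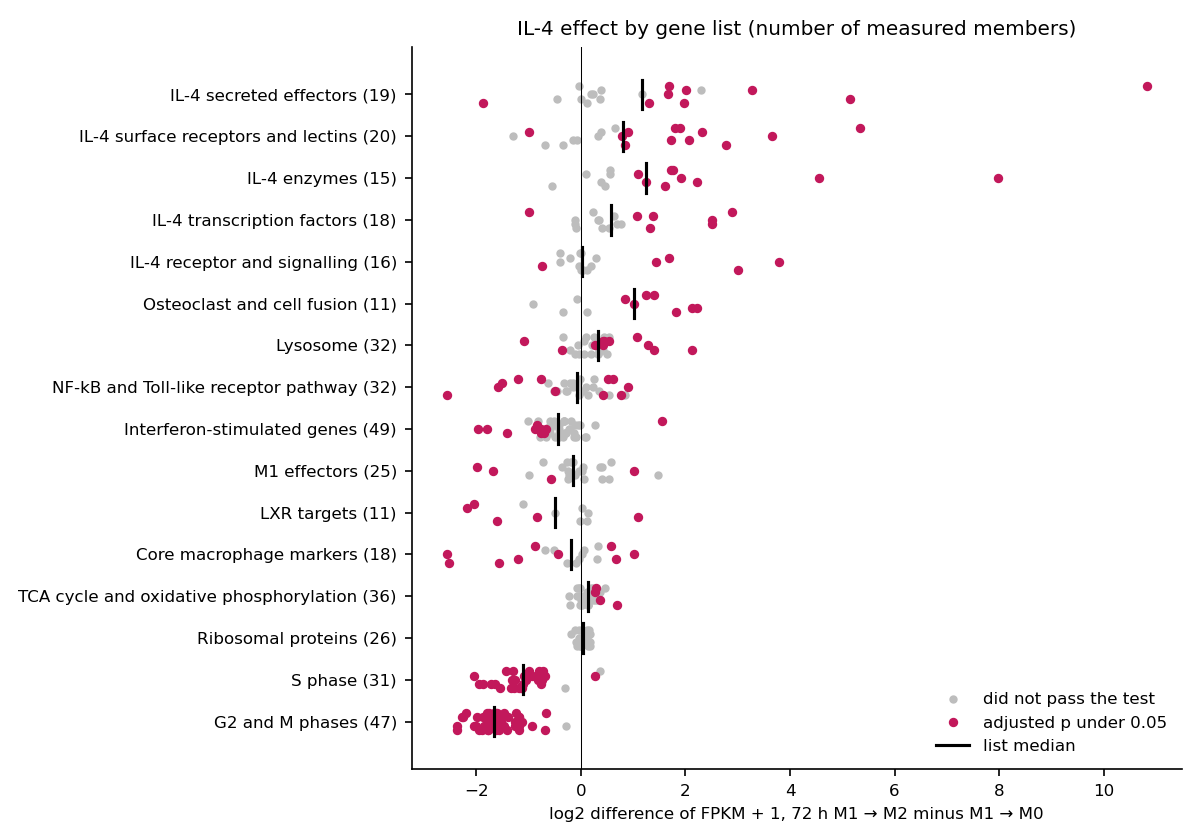
Log2 differences, M1 → M2 minus M1 → M0 at 72 h, for the members of the gene lists described in the text, with 1 point per gene, coloured where the gene passed the test and grey where it did not, and a bar at the list median. Lists of IL-4 effectors, receptors and enzymes lie mostly to the right of 0, and both cell cycle lists lie almost wholly to the left, with medians of -1.11 (S phase) and -1.65 (G2 and M phases).

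The IL-4 target lists rose in part. Of 19 measured secreted effectors, 8 rose and 1 fell, with a list median of 1.17, beside a median of 0.02 over all genes. Among all genes 8.46% were higher and 8.45% lower by the test. Besides the genes above, Igf1, a growth factor, stood at 897, 1046 and 1026 FPKM in M1 → M2 cells, against 390.3, 399 and 409 FPKM in M1 → M0 cells (log2 difference 1.30), and Mmp13, a collagenase, rose by 2.02. The effector that fell was Pdgfb, a platelet-derived growth factor chain, at 12.4, 5.86 and 6.72 FPKM in M1 → M2 cells, against 55.6, 24.5 and 23.2 FPKM in M1 → M0 cells (log2 difference -1.87). The M2 chemokine Ccl24 stayed low, at 0.117, 0.351 and 0.321 FPKM in M1 → M2 cells and 0.0193, 0.0579 and 0.113 FPKM in M1 → M0 cells (adjusted p = 0.823). Of 20 surface receptors and lectins, 11 rose and 1 fell (median 0.82). Clec7a, the beta-glucan receptor Dectin-1, stood at 488, 384 and 373 FPKM in M1 → M2 cells, against 113, 101 and 79.4 FPKM in M1 → M0 cells (log2 difference 2.08). Mrc1, the mannose receptor, stood at 263, 386 and 343 FPKM in M1 → M2 cells, against 15.4, 86.3 and 75.4 FPKM in M1 → M0 cells, with a log2 difference of 2.78 that was 2.00 without M1 → M0 replicate 1. Tfrc, the transferrin receptor, rose by 1.89 and Cd36, a scavenger receptor, by 0.91.

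Of 15 enzymes and other IL-4 targets, 9 rose and 0 fell (median 1.25), beside 8.46% of all genes higher and 8.45% lower by the test. Tgm2, a transglutaminase used as an M2 marker, stood at 85.9, 138 and 142 FPKM in M1 → M2 cells, against 66.2, 48.4 and 52.4 FPKM in M1 → M0 cells (log2 difference 1.09). Of 18 transcription factors, 6 rose and 1 fell (median 0.59). Egr2 stood at 62.6, 82.1 and 72.4 FPKM in M1 → M2 cells, against 8.1, 10.9 and 7.91 FPKM in M1 → M0 cells (log2 difference 2.88). Bhlhe40 and Nfil3, both basic-region repressors, rose by 2.52 and 2.50, Klf4 by 1.38 and Batf3 by 1.33. Pparg, a nuclear receptor for fatty acids, stood at 32.3, 48.8 and 46.5 FPKM in M1 → M2 cells, against 13.7, 22.1 and 23.8 FPKM in M1 → M0 cells. Its log2 difference of 1.08 passed the test (adjusted p = 0.0285) but not without M1 → M2 replicate 2 (0.115), without M1 → M2 replicate 3 (0.0965) or without M1 → M0 replicate 1 (0.171). Maf, a factor of the resting macrophage, was the member lower in M1 → M2 cells, at 11.8, 7.76 and 12.9 FPKM, against 21.8, 17.7 and 27.8 FPKM in M1 → M0 cells. Its log2 difference of -0.99 (adjusted p = 0.0129) did not pass without M1 → M2 replicate 2 (0.122) or without M1 → M0 replicate 3 (0.103).

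Genes of osteoclasts and fusing macrophages rose with IL-4. Of 11 measured, 7 rose and 0 fell (median 1.01), and 4 rose with an added 10 FPKM in place of 1. The share of all genes was 8.46% higher and 8.45% lower by the test. Atp6v0d2, a proton pump subunit needed for fusion in mouse macrophages, stood at 457, 596 and 606 FPKM in M1 → M2 cells, against 89.5, 151 and 144 FPKM in M1 → M0 cells (log2 difference 2.13). Itgb3, the beta 3 integrin, stood at 5.8, 12.2 and 10.4 FPKM in M1 → M2 cells, against 1.12, 1.37 and 0.968 FPKM in M1 → M0 cells (log2 difference 2.23). Acp5, the tartrate-resistant phosphatase, rose by 1.82, with an adjusted p of 0.096 in a fit of the 6 libraries alone. Of 32 lysosome genes 9 rose and 2 fell, and 16 rose in the fit with replicate blocks. The cathepsin genes Ctsz and Ctsl stood higher by 1.07 and 1.28, and the protease gene Ctsc fell by 1.08. Ctsl stood at 6285, 8408 and 6716 FPKM in M1 → M2 cells, against 2925, 3099.9 and 2701 FPKM in M1 → M0 cells, and its adjusted p of 0.00821 was 0.0511 without M1 → M2 replicate 2.

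Among genes whose libraries did not overlap, the 12 largest decreases included surface, iron and lipid genes. Cell cycle genes with overlapping libraries, such as Prc1 (-2.37) and Ube2c (-2.36), fell by more than several of these 12. Cd14, the LPS co-receptor, stood at 20.3, 15.2 and 13.7 FPKM in M1 → M2 cells, against 99.9, 111 and 91.6 FPKM in M1 → M0 cells, a log2 difference of -2.56 (SE 0.27, adjusted p = 1.83e-13). Aif1, the calcium-binding protein Iba1 of macrophages, stood at 8.92, 7.01 and 10 FPKM in M1 → M2 cells, against 50.4, 58.1 and 53.1 FPKM in M1 → M0 cells (log2 difference -2.52). Slc40a1, the iron exporter ferroportin, stood at 4.26, 4.83 and 6.46 FPKM in M1 → M2 cells, against 19.6, 30.6 and 35.2 FPKM in M1 → M0 cells (log2 difference -2.23). With Tfrc higher and Slc40a1 lower, the importer and the exporter of iron moved in opposite directions in every library. Lsp1, an actin-binding protein of leukocytes, fell by 2.53, and Clec12a, an inhibitory lectin receptor, by 1.98 on the log2 scale. Pcp4l1 (-2.82), Tmem176b (-2.38), Ctla2b (-2.07) and D17H6S56E-5 (-2.38) were also among the 12 largest decreases without overlap. D17H6S56E-5 stood at 2.5, 16.2 and 12.2 FPKM in M1 → M2 cells, against 20.1, 74.5 and 69.1 FPKM in M1 → M0 cells, and its difference was -1.68 without M1 → M2 replicate 1, -2.97 without M1 → M0 replicate 1, and its adjusted p 0.0885 in the fit of the 6 libraries alone.

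Lipid transport genes controlled by the liver X receptors (LXR) were mixed. Of 11 measured LXR targets and receptors, 4 fell and 1 rose (median -0.50), beside 8.45% of all genes lower and 8.46% higher by the test. Apoe, the lipoprotein that carries cholesterol out of macrophages, stood at 486, 1023 and 893 FPKM in M1 → M2 cells, against 2517, 3784 and 3279 FPKM in M1 → M0 cells (log2 difference -2.04, adjusted p = 1.81e-05). Apoc2, the cofactor of lipoprotein lipase, stood at 1.97, 4.66 and 5.12 FPKM in M1 → M2 cells, against 13.9, 24 and 24.8 FPKM in M1 → M0 cells (log2 difference -2.18). The cholesterol exporters went opposite ways. Abca1 stood at 7.02, 10.6 and 6.41 FPKM in M1 → M2 cells, against 20.7, 31.2 and 26.5 FPKM in M1 → M0 cells (log2 difference -1.60). Abcg1 stood at 43.9, 87.1 and 74.3 FPKM in M1 → M2 cells, against 19.1, 42.5 and 34.4 FPKM in M1 → M0 cells (log2 difference 1.09), with an adjusted p of 0.102 in the fit of the 6 libraries alone.

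Chemokines and the Toll-like receptor (TLR) pathway split into genes that rose and genes that fell. Ccl3 and Ccl4, inflammatory chemokines, fell by 2.18 and 1.72 on the log2 scale. Ccl3 stood at 15.7, 22.5 and 27.2 FPKM in M1 → M2 cells, against 72.2, 108 and 127 FPKM in M1 → M0 cells, and Cxcl16 fell by 1.74. The CCR2 ligands were higher: Ccl2 stood at 569.9, 388 and 515 FPKM in M1 → M2 cells, against 106, 208 and 266 FPKM in M1 → M0 cells, and Ccl12 at 49.3, 87.9 and 90.5 FPKM in M1 → M2 cells, against 2.6, 17 and 19.2 FPKM in M1 → M0 cells. Their differences of 1.42 and 2.76 did not pass without M1 → M0 replicate 1, the lowest library (adjusted p = 0.053 for Ccl2 and 0.0847 for Ccl12, whose difference was then 1.96). Ccl2, Ccl7 and Ccl12 are related genes, and whether reads were shared among them was not tested. Of 32 NF-kB and TLR pathway genes, 5 rose and 6 fell, beside 8.46% of all genes higher and 8.45% lower by the test. Tlr2 and Tlr9 fell by 1.59 and 1.51, with levels of 2.49, 1.59 and 1.91 FPKM for Tlr2 in M1 → M2 cells, against 8.92, 6.6 and 8.53 FPKM in M1 → M0 cells, and an adjusted p of 0.0891 for Tlr2 with an added 10 FPKM. Tlr8 rose by 0.91, Tlr1 by 0.77 and Tlr6 by 0.42. Tlr4, the receptor through which LPS acts, also rose. It stood at 47.6, 41.8 and 42.8 FPKM in M1 → M2 cells, against 22.8, 28.6 and 34.4 FPKM in M1 → M0 cells (log2 difference 0.62, adjusted p = 0.00925).

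Inhibitors of inflammatory signalling were among the genes that rose. Of 20 feedback genes, 6 rose and 1 fell, where 8.46% of all genes were higher and 8.45% lower by the test. Cd274, which encodes PD-L1, stood at 129, 93.4 and 80 FPKM in M1 → M2 cells, against 25.7, 18.9 and 15.4 FPKM in M1 → M0 cells (log2 difference 2.28). Zc3h12a, a nuclease that degrades cytokine mRNAs, rose by 1.66, and Dusp4, a MAP kinase phosphatase, by 1.64. Not all such genes rose, as Irak3 of the NF-kB and TLR list fell by 0.75 (adjusted p = 0.0207). Of the M1 markers, Nos2, the inducible nitric oxide synthase, was low in both groups and stood at 1.47, 0.98 and 0.703 FPKM in M1 → M2 cells and 2.33, 1.35 and 1.26 FPKM in M1 → M0 cells, a log2 difference of -0.36 (SE 0.36, adjusted p = 0.604). Nos2 was lower in M1 → M2 cells in each of the 3 same-numbered pairs, and its adjusted p was 0.0221 with replicate blocks in a fit of the 6 libraries. Tnf stood at 11.1, 4.9 and 7.13 FPKM in M1 → M2 cells, against 22.8, 12 and 17.3 FPKM in M1 → M0 cells, a log2 difference of -1.09 (SE 0.50, adjusted p = 0.129) that reached 0.00102 with replicate blocks in a fit of the 6 libraries. Myd88, the TLR adaptor, differed by -0.33 (adjusted p = 0.162), and it passed the test after quantile normalization (0.0236), in a fit of the 6 libraries alone (0.0347), with replicate blocks in that fit (0.0141) and with replicate 1 left out of every condition (0.0231). Nfkb1 differed by 0.52 with an adjusted p of 0.0435, which lay between 0.0546 and 0.197 when any 1 of the 6 libraries was left out. The sum over the list of M1 effectors was higher with IL-4. It was 1236, 1582 and 1388 FPKM in M1 → M2 cells, against 1140.5, 1178 and 1035 FPKM in M1 → M0 cells. Such a sum rests mostly on its most expressed members.

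Interferon-stimulated genes lay mostly lower with IL-4, by small amounts. Over all genes 8.45% were lower and 8.46% higher by the test, and 14.5% were lower without overlap. Of 49 measured interferon-stimulated genes, 9 fell and 1 was higher by the test, with a median of -0.43. The libraries were lower without overlap for 26 of them. The number that fell was 21 with replicate 1 left out of every condition, 31 in the 6 libraries with replicate blocks, and 6 without M1 → M2 replicate 2. Ifit3, an antiviral RNA-binding protein, stood at 1.66, 1.19 and 2.39 FPKM in M1 → M2 cells, against 11.4, 7.28 and 10.4 FPKM in M1 → M0 cells (log2 difference -1.96). Ifit2 fell by 1.40. The chemokine Cxcl10 stood at 0.169, 0.598 and 0.34 FPKM in M1 → M2 cells, against 1.74, 4.46 and 5.87 FPKM in M1 → M0 cells, with a difference of -1.78 whose adjusted p was 0.0743 without M1 → M0 replicate 3 and 0.598 with an added 10 FPKM. Cxcl9, a related chemokine, was the member on the other side, at 2.5, 3.42 and 4.05 FPKM in M1 → M2 cells, against 0.429, 0.297 and 0.649 FPKM in M1 → M0 cells, but its adjusted p of 0.0347 did not hold in 5 of the 6 fits that left 1 library out (0.0459 to 0.115 over all 6).

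Cell cycle genes were lower almost throughout, beside 8.45% of all genes lower and 8.46% higher by the test. Of 47 measured genes expressed in G2 and mitosis, 46 were called lower, with a median of -1.65, and of 31 S phase genes 28 fell and 1 rose, with a median of -1.11. Prc1, which bundles spindle microtubules, stood at 0.634, 6.84 and 4.96 FPKM in M1 → M2 cells, against 5.48, 42.9 and 35.9 FPKM in M1 → M0 cells (log2 difference -2.37). Replicate 1 was the lowest library in both groups, and M1 → M0 replicate 1 lay inside the range of the M1 → M2 libraries. Ube2c, a ubiquitin-conjugating enzyme of mitosis, stood at 0.523, 8.26 and 6.16 FPKM in M1 → M2 cells, against 4.04, 52.7 and 49.1 FPKM in M1 → M0 cells (log2 difference -2.36). Mki67, the proliferation marker Ki-67, stood at 0.994, 7.89 and 5.13 FPKM in M1 → M2 cells, against 6.48, 41 and 32.3 FPKM in M1 → M0 cells (log2 difference -2.20). Rrm2, a subunit of ribonucleotide reductase, fell by 1.95 and the helicase subunit gene Mcm6 by 1.11.

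Within each replicate number the M1 → M2 library was the lower one. The 47 G2 and M phase genes summed to 237, 566 and 499 FPKM in M1 → M2 cells, against 430, 1702 and 1572 FPKM in M1 → M0 cells, and the 31 S phase genes to 385, 680.3 and 605 FPKM in M1 → M2 cells, against 721, 1293 and 1294 FPKM in M1 → M0 cells. The groups overlapped across replicate numbers. Only 3 of the 47 G2 and M phase genes and 14 of the 31 S phase genes were lower without overlap, beside 14.5% of all genes. In a fit of the 6 libraries alone, with no block, 0 G2 and M phase genes and 5 S phase genes were called lower, and with replicate blocks in those 6 libraries 45 and 29 were. Without M1 → M2 replicate 1, 41 G2 and M phase genes and 17 S phase genes were called lower, with medians of -1.21 and -0.79. Without M1 → M0 replicate 1 the G2 and M phase median was -2.39, and the difference of Prc1 was -3.24, of Ube2c -3.48, of Mki67 -2.97 and of Rrm2 -2.63. Without M1 → M2 replicate 1 these were -1.68 for Prc1, -1.55 for Ube2c, -1.57 for Mki67 and -1.24 for Rrm2. Fewer cycling cells and less of these RNAs per cell cannot be told apart in bulk samples, here or for any list.

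**Figure D3:**
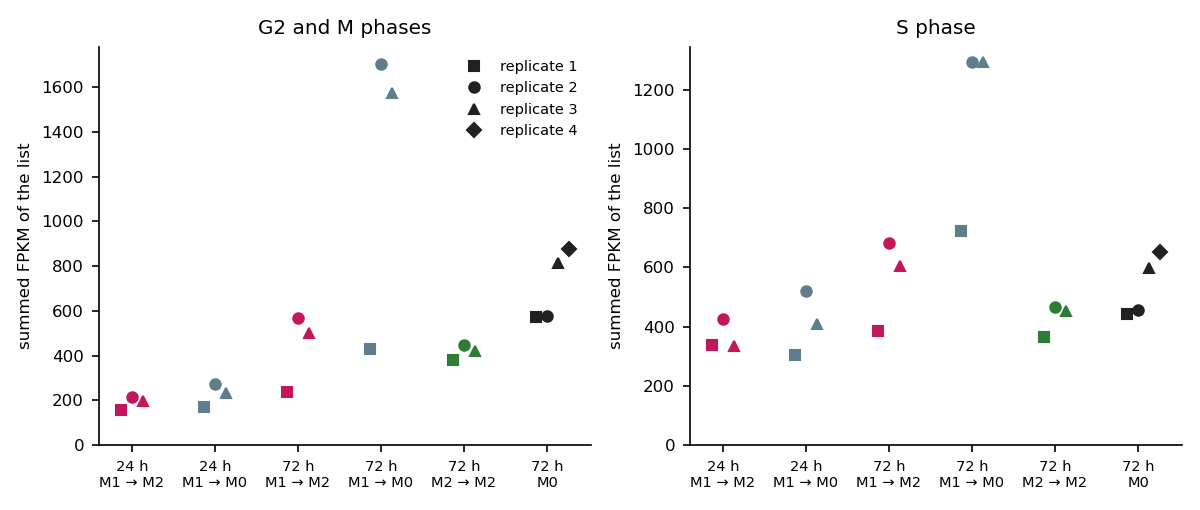
Summed FPKM of the G2 and M phase list and of the S phase list in each library, for M1 → M2 and M1 → M0 cells after 24 h and 72 h in the second medium and for M2 → M2 and M0 cells at 72 h, with marker shapes for replicate numbers. The M1 → M0 libraries 2 and 3 at 72 h are the highest of the plot, at 1702 and 1572 FPKM for G2 and M phases, and the M1 → M2 library of each replicate number lies below its M1 → M0 counterpart at 72 h.

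The cell cycle lists were then set beside cells without an M1 past. The G2 and M phase list summed to 378, 446 and 422 FPKM in M2 → M2 cells and 574, 577, 812 and 878 FPKM in M0 cells at 72 h. The M1 → M2 sums spanned those of M2 → M2 cells, and M1 → M0 replicates 2 and 3 lay above all M0 libraries of 72 h. Between M1 → M2 and M2 → M2 cells 3 of the 47 genes were called, all higher in M1 → M2 cells, where 11.8% of all genes were higher and 9.76% lower by the test. Between M1 → M0 and M0 cells 17 of the 47 genes and 30 of the 31 S phase genes were higher in M1 → M0 cells, where 10.7% of all genes were higher and 7.19% lower. The 17 genes became 45 without M1 → M0 replicate 1, 3 without M1 → M0 replicate 2 or without M1 → M0 replicate 3, 8 without M0 replicate 1, 7 without M0 replicate 2, 26 without M0 replicate 4, 29 after quantile normalization, 34 with replicate blocks and 1 in a fit of the 7 libraries alone, while the S phase count lay between 21 and 30 in these fits. M0 libraries 1 and 2 lay closer to each other than any other pair within the 4 groups at 72 h, and averaging M0 libraries 1 with 2 and 3 with 4 left 8 G2 and M phase genes and 28 S phase genes higher. That comparison called 59.9% of its genes on the higher side, and 45.1% with libraries centred on their medians. At 24 h the G2 and M phase sums were 156, 215 and 196 FPKM in M1 → M2 cells and 171, 275 and 234 FPKM in M1 → M0 cells, below every 72 h M1 → M0 library. M0 cells at 24 h in the second medium summed to 1995 and 2021 FPKM, above every 72 h M1 → M0 library.

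Among genes of antigen presentation and of other cell types, a few rose. Of 6 measured MHC class II genes, Cd74, the invariant chain, rose, at 99.2, 92.1 and 72 FPKM in M1 → M2 cells, against 33, 37.3 and 29.6 FPKM in M1 → M0 cells (log2 difference 1.37). H2-Ab1 had 15.5, 14.1 and 10.5 FPKM in M1 → M2 cells, against 6.41, 7.46 and 6.39 FPKM in M1 → M0 cells, with an adjusted p of 0.0651 that was 0.0121 with replicate blocks. Fcgr3, an activating receptor for IgG, rose by 0.89 and Fcgr1, the high-affinity receptor, fell by 1.57. Itgax, the integrin CD11c of dendritic cells and of some macrophages, stood at 87.1, 113 and 94.9 FPKM in M1 → M2 cells, against 15.1, 12.6 and 6.62 FPKM in M1 → M0 cells (log2 difference 3.06), and 2 of 7 measured dendritic cell markers rose. Of 3 endothelial markers Vwf and Pecam1 rose, by 1.76 and 1.48, and Eng did not pass the test (0.02, adjusted p = 0.983). All 3 summed to 61.2 to 80.4 FPKM in M1 → M2 cells against 39.9 to 57.7 FPKM in M1 → M0 cells. Of this, Eng held 33.9, 45.5 and 44.5 FPKM in the M1 → M2 libraries. Of 18 core macrophage markers 3 rose and 6 fell, where 8.46% of all genes were higher and 8.45% lower by the test. The part of a change in cell makeup in these values was not tested.

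Metabolic and housekeeping lists differed in their share of called genes, where 8.46% of all genes were higher and 8.45% lower by the test. Of 22 glycolysis genes 1 rose, and of 26 ribosomal protein genes 0 were called (median 0.04). Of 36 mitochondrial respiration and TCA cycle genes 4 rose, and 8 with replicate blocks. Of 23 genes of fatty acid handling 4 rose, and 8 with replicate blocks. Idh1, the cytosolic isocitrate dehydrogenase, stood at 101, 129.7 and 127 FPKM in M1 → M2 cells, against 77.5, 69.2 and 71.3 FPKM in M1 → M0 cells (log2 difference 0.70), and Etfa, an electron carrier of fatty acid oxidation, rose by 0.47. Of 21 unfolded protein and amino acid stress genes 1 rose, Pdia4, a chaperone of the endoplasmic reticulum, at 105, 116 and 96.4 FPKM in M1 → M2 cells, against 28.6, 47.9 and 37.4 FPKM in M1 → M0 cells (log2 difference 1.48). Of 15 NRF2 targets 3 fell, among them Gsr, glutathione reductase, by 0.96 on the log2 scale.

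The IL-4 effect was followed over time by comparing M1 → M2 with M1 → M0 cells at each collection. At 1 h 3 genes were higher (0.0361% of those tested) and 0 lower (0%), with 62 genes at an unadjusted p below 0.05. The 3 genes, named because they were so few, were Ier3, a stress-response gene, at 45 FPKM in M1 → M2 cells against 7.63 FPKM in M1 → M0 cells, Socs1 and Socs3, at 79.3 FPKM in M1 → M2 cells against 30.8 FPKM in M1 → M0 cells. At 2 h 105 genes were higher (1.26%) and 14 lower (0.169%), at 4 h 424 (5.1%) and 152 (1.83%), and at 6 h 538 (6.48%) and 248 (2.99%). At 12 h 595 genes were higher (7.16%) and 382 lower (4.6%), and at 24 h 521 (6.27%) and 329 (3.96%). The 24 h calls were 61.3% on the higher side, and 51.3% after quantile normalization.

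**Figure D4:**
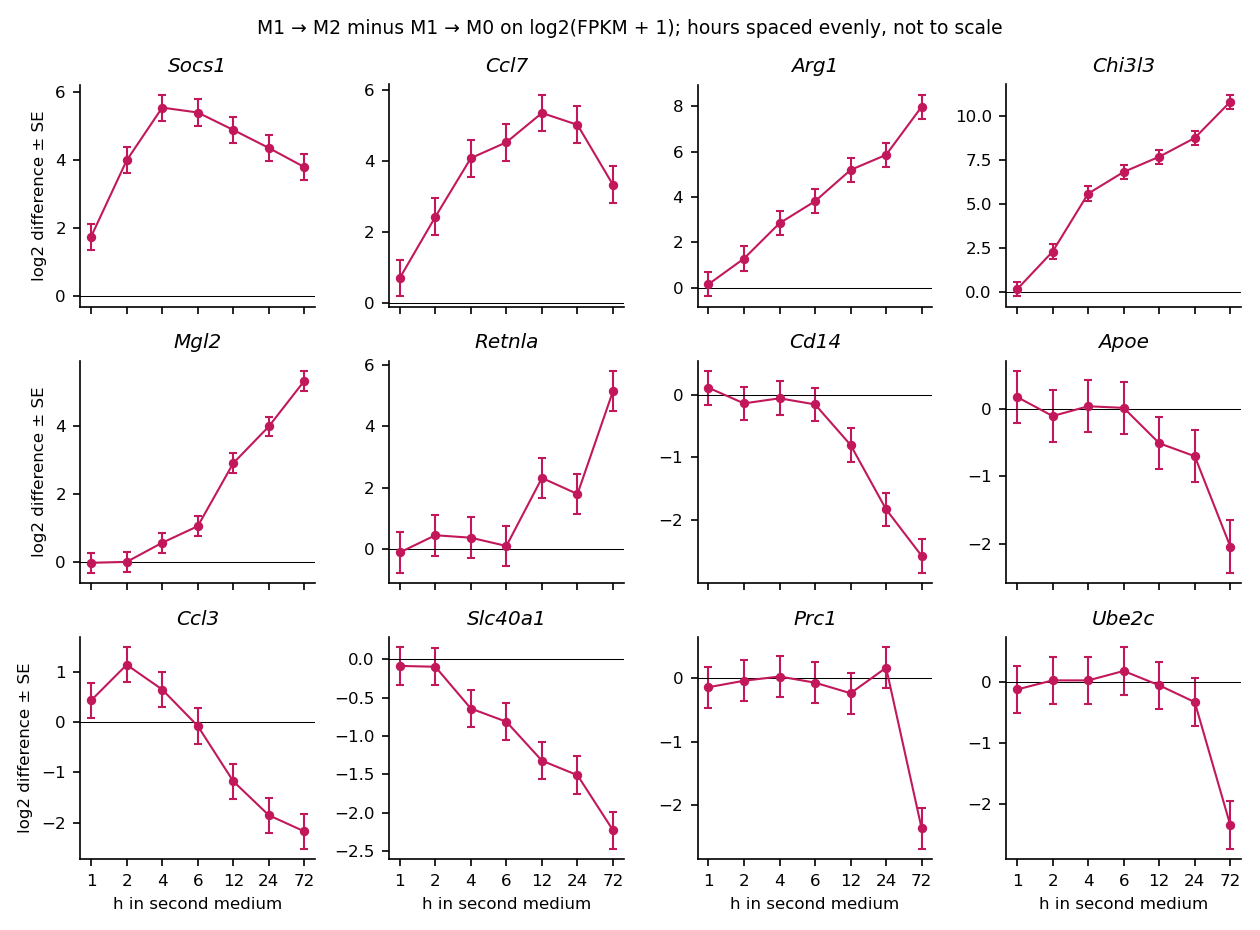
Log2 difference of FPKM + 1, M1 → M2 minus M1 → M0, with its SE for 12 genes at 1, 2, 4, 6, 12, 24 and 72 h in the second medium, with the hours evenly spaced and a line at 0. Socs1 first passes the test at 1 h, Chi3l3 and Ccl7 at 2 h and Arg1 at 4 h, while Apoe, Prc1 and Ube2c pass the test only at 72 h among these collections.

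Socs1 was higher in M1 → M2 cells from the first collection and had its highest mean at 2 h. It had means of 194 FPKM in M1 → M2 cells against 60.6 FPKM in M1 → M0 cells at 1 h, 400.3 against 28.3 FPKM at 2 h, and 39.9 against 1.94 FPKM at 72 h. Egr2 first passed the test at 2 h (30.1 FPKM in M1 → M2 cells against 1.58 FPKM in M1 → M0 cells) and stood at 72.4 against 8.97 FPKM at 72 h. Ccl7 was highest at 12 h, at 1789 FPKM in M1 → M2 cells against 43.8 FPKM in M1 → M0 cells. Arg1 was already expressed in both groups at 1 h, at 196 FPKM in M1 → M2 cells and 177 FPKM in M1 → M0 cells. At 12 h it stood at 1821 FPKM in M1 → M2 cells against 49.7 FPKM in M1 → M0 cells, and the M1 → M0 mean was 4.34 FPKM at 72 h. Chi3l3 had a higher mean at each later collection in M1 → M2 cells, with 9.06 FPKM in M1 → M2 cells against 0.758 FPKM in M1 → M0 cells at 2 h, 1091 against 1.47 FPKM at 24 h and 2864 against 0.59 FPKM at 72 h. Mgl2 first passed at 6 h, at 1.47 FPKM in M1 → M2 cells against 0.173 FPKM in M1 → M0 cells.

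Decreases passed the test at different collections. Idh1 was lower at 4 h, at 28.9 FPKM in M1 → M2 cells against 43.2 FPKM in M1 → M0 cells (log2 difference -0.57, adjusted p = 0.000293), at 6 h (31.4 against 53.7 FPKM, -0.75) and at 12 h (43.8 against 62.4 FPKM, -0.50). It did not pass at 24 h (adjusted p = 0.75) and was higher at 72 h. Cd14 first passed the test at 12 h, at 24.8 FPKM in M1 → M2 cells against 44.3 FPKM in M1 → M0 cells. Slc40a1 first passed at 6 h, at 8.61 FPKM in M1 → M2 cells against 15.9 FPKM in M1 → M0 cells. Apoe stood at 1126 FPKM in M1 → M2 cells and 1863 FPKM in M1 → M0 cells at 24 h (adjusted p = 0.317), and first passed at 72 h. Aif1 stood at 40.8 FPKM in M1 → M2 cells and 63.2 FPKM in M1 → M0 cells at 24 h (adjusted p = 0.452). Prc1 was near the bottom of the scale in both groups at 24 h, at 1.43 FPKM in M1 → M2 cells and 1.1 FPKM in M1 → M0 cells.

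The difference between the IL-4 effect at 72 h and that at 24 h was tested as an interaction. It was positive for 16 genes (0.193%) and negative for 79 (0.951%). The count moved with single libraries: the 95 genes became 210 with replicate blocks, 12 without M1 → M0 replicate 3, 13 without M1 → M0 replicate 2, 36 without M1 → M2 replicate 1, 51 without 24 h M1 → M0 replicate 1 and 266 without M1 → M0 replicate 1. Of the 47 G2 and M phase genes 28 were negative (median -1.47), but 1 without M1 → M2 replicate 1, 1 without M1 → M0 replicate 2, 1 without M1 → M0 replicate 3, 16 without 24 h M1 → M0 replicate 1, 45 without M1 → M0 replicate 1, and 0 in a fit of the 12 libraries alone. Creg1, a secreted glycoprotein of the endosomal system, and Idh1 had the firmest positive terms, 1.01 (adjusted p = 9.11e-05) and 0.80 (adjusted p = 0.0039), and both passed in all 12 fits that left 1 library out, but not in the fit of the 12 libraries alone (0.0896 and 0.0949). Ly6a, a GPI-anchored surface protein, had a term of -2.29 (adjusted p = 0.000581) that passed in the same 12 fits and not in that of the 12 libraries alone (0.185). Ly6a stood at 45.2 FPKM in M1 → M2 cells and 33.7 FPKM in M1 → M0 cells at 24 h, and 1.4 FPKM in M1 → M2 cells against 7.66 FPKM in M1 → M0 cells at 72 h. Creg1 and Idh1 differed by -0.12 (adjusted p = 0.687) and -0.10 (adjusted p = 0.75) at 24 h, and rose by 0.89 and 0.70 at 72 h. The Chi3l3 and Retnla terms, 2.06 and 3.36, each with an adjusted p of about 0.046, were lost in 8 and 10 of those 12 fits.

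The IL-4 effect after M1 was then set against the effect of IL-4 in cells without an M1 past, that is M2 → M2 against M0. The term was positive for 275 genes (3.31%) and negative for 310 (3.73%). In the comparison of M2 → M2 with M0 cells, 20.4% of genes were higher and 14.9% lower. M2 → M2 cells had seen IL-4 for 24 h longer than M1 → M2 cells. This term alone cannot tell the length of IL-4 exposure from the M1 past. M2 → M2 cells after 24 h in the second medium had seen IL-4 for less time than 72 h M1 → M2 cells. Their secreted effector sums were 25672, 19719 and 19114 FPKM, against 6573, 6650.5 and 5289.5 FPKM in the latter. Such sums speak mainly for the most expressed members: at 72 h Retnla and Chi3l3 made up most of the sum in each M2 → M2 library. Surface receptor and lectin sums overlapped, at 5421, 5141 and 5440.2 FPKM against 5162, 5244 and 5426 FPKM. The part of exposure length was not tested. Fibroblast markers summed to 54.6 to 444 FPKM in M0 cells, 14.1 to 39.6 FPKM in M2 → M2 cells and 1.68 to 7.24 FPKM in the 6 libraries with an M1 past, and their part in the terms was not tested. The 4 M0 libraries, all labelled biological replicates, had fibroblast sums of 54.6, 55.2, 444 and 242 FPKM. M0 libraries 1 and 2 were the most alike: over genes of at least 10 FPKM the SD of their log2 difference was 0.156, against 0.323 to 0.38 for the other M0 pairs and 0.219 to 0.413 for pairs within the M1 → M2, M1 → M0 and M2 → M2 groups, so their independence as cultures was not established. With M0 libraries 1 and 2 averaged, and 3 and 4 averaged, as 2 replicates, 419 genes had a term past the test, and each gene named for this term stayed on the same side of the threshold. With replicate blocks, whose numbers did not pair the M0 libraries with the others, 1021 genes had a term past the test.

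Several classical IL-4 genes were far below their level in M2 → M2 cells. Retnla averaged 91.5 FPKM in M1 → M2 cells, against 55574, 16749 and 13483 FPKM in the 3 M2 → M2 libraries, and its term was -8.91 (SE 0.91), or -7.51 without M1 → M2 replicate 1. Ear11 stood at 3388, 1630.2 and 1389.6 FPKM in M2 → M2 cells, and its term was -9.25, or -8.63 without M1 → M2 replicate 1. Mgl2 stood at 1503, 899 and 812 FPKM in M2 → M2 cells, where every library was above every M1 → M2 library, and its term was -3.91. Ccl24 stood at 325, 131 and 92.8 FPKM in M2 → M2 cells with a term of -6.70, and Chi3l3 at 11211, 12145 and 11432 FPKM with a term of -2.42 (adjusted p = 0.0013). Of 19 secreted effectors 9 had a negative term and 0 a positive one (8 with the M0 libraries averaged). Flt1, a VEGF receptor, Rbp4, a retinol carrier, and Aqp9, a glycerol channel, had terms of -3.15, -4.50 and -4.09.

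All 6 MHC class II genes had negative terms, with a median of -3.36. H2-Aa stood at 6.97, 9.57 and 6.41 FPKM in M1 → M2 cells and 3.96, 15.3 and 6.85 FPKM in M1 → M0 cells, against 1560.4, 309 and 218 FPKM in M2 → M2 cells and 31, 30.6, 26.1 and 14.8 FPKM in M0 cells. The M2 → M2 libraries alone stood above 31 FPKM, with a term of -4.21 (SE 0.52) that was -3.35 without M2 → M2 replicate 1. Cd74, which did rise after M1, stood at 6251, 1840.1 and 1144 FPKM in M2 → M2 cells, with a term of -3.46 that was -2.76 without M2 → M2 replicate 1. Unfolded protein and amino acid stress genes also differed, with 11 of 21 negative and 0 positive (10 with the M0 libraries averaged). Asns, asparagine synthetase, stood at 17.3, 12.9 and 18.6 FPKM in M1 → M2 cells and 15.2, 18.3 and 17.3 FPKM in M1 → M0 cells, against 66.3, 89.8 and 84 FPKM in M2 → M2 cells and 13, 12.5, 15.5 and 16 FPKM in M0 cells (term -2.47).

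Positive terms included scavenger, lectin and Fc receptors. Stab1, a scavenger receptor, stood at 48, 92.9 and 82.2 FPKM in M1 → M2 cells and 95.8, 179 and 170 FPKM in M1 → M0 cells, against 5.75, 13.3 and 15.4 FPKM in M2 → M2 cells and 211, 203, 234 and 218 FPKM in M0 cells (term 3.23). Clec4d, a receptor for mycobacterial lipids, stood at 435, 254 and 239 FPKM in M1 → M2 cells and 553, 279.6 and 284 FPKM in M1 → M0 cells, against 26.1, 49.4 and 59.5 FPKM in M2 → M2 cells (term 2.73). Fcgr2b had a term of 2.32: it reached 212, 188 and 180.5 FPKM in M2 → M2 cells, and M0 cells held 57.5, 53, 35.2 and 28.8 FPKM, above every M1 → M0 library. Ednrb, an endothelin receptor, stood at 14.7, 19.5 and 20.8 FPKM in M1 → M2 cells and 0.522, 2.86 and 2.47 FPKM in M1 → M0 cells, against 1.32, 3.38 and 5.12 FPKM in M2 → M2 cells and 7.22, 8.07, 7.53 and 7.75 FPKM in M0 cells (term 3.93). It rose with IL-4 after M1, by 2.81, and was lower with IL-4 without M1, by 1.12 on the log2 scale.

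**Figure D5:**
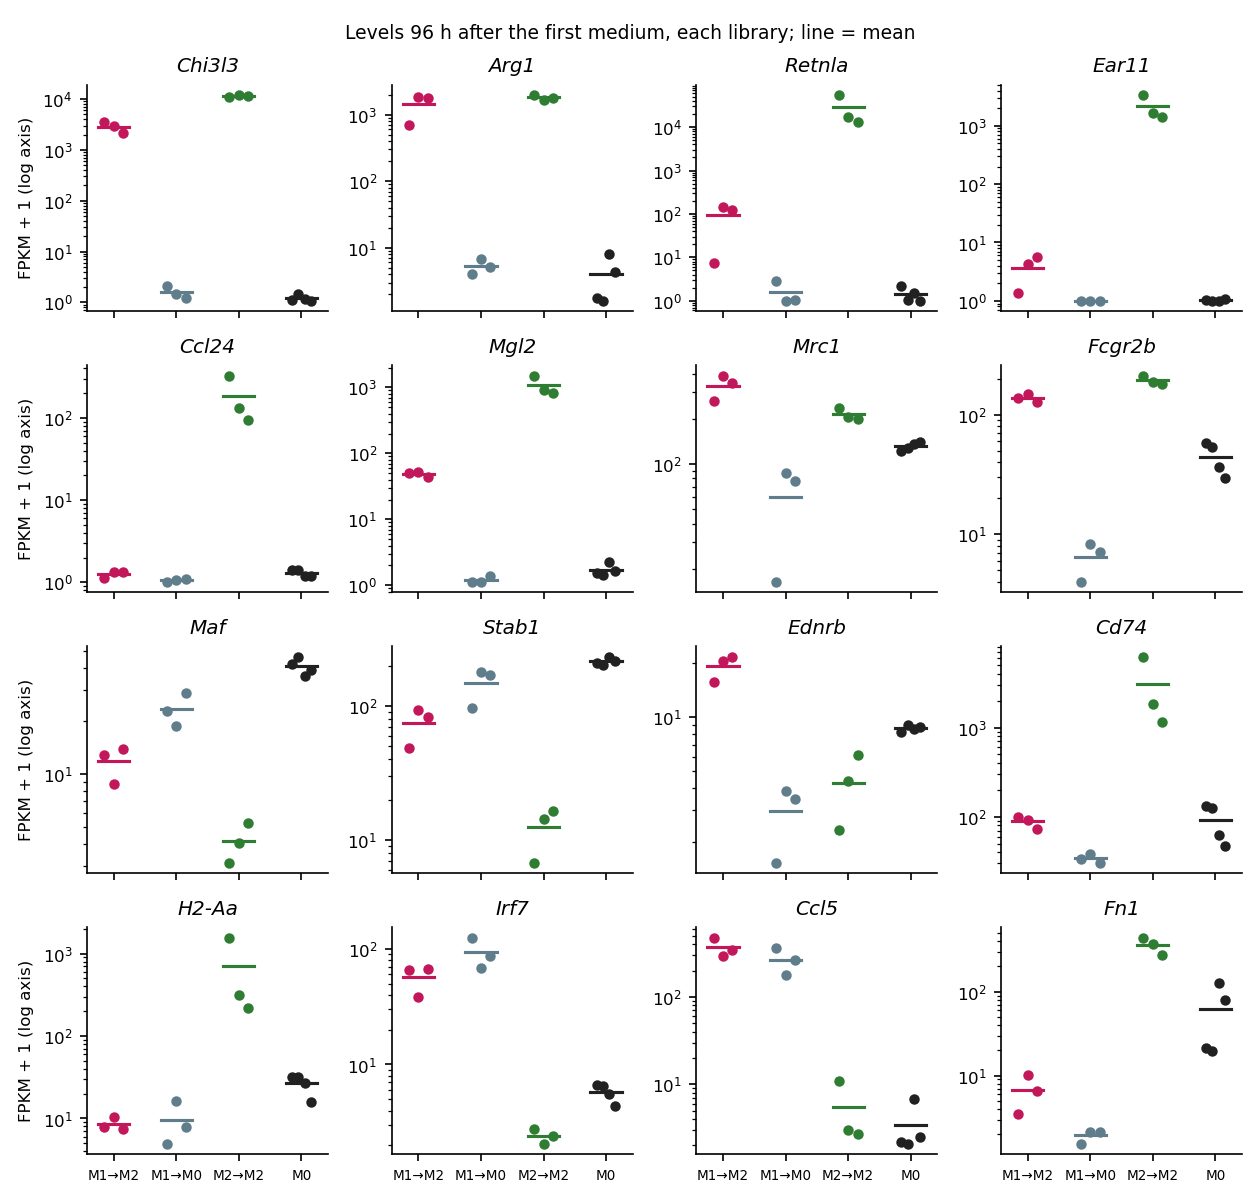
FPKM + 1 of 16 genes in each library at 96 h in all, for M1 → M2, M1 → M0, M2 → M2 and M0 cells, on a log axis with a line at the group mean. The M1 → M2 points of Retnla, Ear11 and H2-Aa all lie below every M2 → M2 point, and the lowest M2 → M2 values are 13483, 1389.6 and 218 FPKM.

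Set directly against M2 → M2 cells, M1 → M2 cells had 979 genes higher (11.8% of those tested) and 811 lower (9.76%). Interferon-stimulated genes were the clearest group on the higher side: 43 of 49 were higher and 0 lower, with a median of 1.41, and 38 to 42 were higher when any 1 library was left out. Irf7, the regulator of type I interferon genes, stood at 64.8, 37 and 66.4 FPKM in M1 → M2 cells, against 1.78, 1.07 and 1.4 FPKM in M2 → M2 cells (log2 difference 4.52). Ccl5, a chemokine for T cells, stood at 476, 293 and 343 FPKM in M1 → M2 cells, against 9.92, 2.02 and 1.74 FPKM in M2 → M2 cells (log2 difference 6.34, or 6.98 without M2 → M2 replicate 1). Saa3, an acute-phase protein, stood at 203, 462 and 305 FPKM in M1 → M2 cells, against 6.24, 4.05 and 3.02 FPKM in M2 → M2 cells (log2 difference 5.86). These genes were high without IL-4 too, as Ccl5 stood at 362, 176 and 260.2 FPKM in M1 → M0 cells. Between M1 → M0 and M0 cells 41 of the 49 interferon-stimulated genes were higher in M1 → M0 cells, beside 10.7% of all genes. Ccl7 and Ccl2 were higher in M1 → M2 than in M2 → M2 cells by 3.89 and 3.53, and by 3.09 and 2.74 without M2 → M2 replicate 1.

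On the lower side, beside 9.76% of all genes, were 13 of 19 secreted effectors and all 6 MHC class II genes (median -4.50). So were 18 of 24 cholesterol synthesis genes and 15 of 21 unfolded protein and amino acid stress genes. H2-Eb1 stood at 1.53, 4.58 and 2.11 FPKM in M1 → M2 cells, against 741, 144 and 103 FPKM in M2 → M2 cells (log2 difference -5.99, or -5.12 without M2 → M2 replicate 1), and Fn1, fibronectin, at 2.51, 9.17 and 5.59 FPKM in M1 → M2 cells, against 441, 368 and 273 FPKM in M2 → M2 cells (log2 difference -5.84). Osteoclast and fusion genes, which rose with IL-4 after M1, were lower than in M2 → M2 cells for 7 of 11. Ocstamp, a fusion protein, stood at 1.08, 2.15 and 1.56 FPKM in M1 → M2 cells, against 40.5, 31.8 and 24.8 FPKM in M2 → M2 cells (log2 difference -3.68).

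Other IL-4 genes did not differ past the test between M1 → M2 and M2 → M2 cells. Arg1 averaged 1442 FPKM in M1 → M2 cells and 1824 FPKM in M2 → M2 cells, a log2 difference of -0.47 (SE 0.54, adjusted p = 0.61). Igf1 averaged 989.6 FPKM in M1 → M2 cells and 992 FPKM in M2 → M2 cells (-0.01, SE 0.24). Egr2 differed by -0.29 (SE 0.38), Lipn by -0.26 (SE 0.23), Fcgr2b by -0.49 (SE 0.25) and Socs1 by 0.62 (SE 0.38). Given these errors, equal levels were not shown.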

How the data were processed

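Bulk RNA-seq libraries of mouse BMDMs were compared at 72 h in the second medium. The authors aligned reads to mm10 with TopHat2 2.0.14, computed FPKM with Cuffnorm 2.2.2, and deposited log10(FPKM + 1) values for 8307 genes and 145 libraries, all of which matched a sample label. The FPKM scaling removes depth, so depth is unknown, and a gene that rises strongly takes reads from others. The table was filtered upstream to genes of at least 10 FPKM in 1 library.

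Values were converted to log2(FPKM + 1) and fitted with limma 3.58.1 (with trend, R 4.3.3), with one mean per condition over all libraries, giving 97 residual degrees of freedom. Tests were two-sided, with Benjamini-Hochberg adjustment over all genes and a threshold of 0.05. Interactions were contrasts in the same fit. Lists were described by counts and medians. Scripts were tested on simulated data. Figures and tables used Python 3.11.15, pandas 2.3.3, numpy 2.4.6 and matplotlib 3.10.9.

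The members and the 38 gene lists were chosen with earlier results of these data known. Named genes were the 12 largest differences each way past the test, provided that either group averaged 10 FPKM or more, with no overlap of libraries and no predicted genes. Added to these were list members, a few genes central to the study, and the 6 largest each way for each interaction and for M1 → M2 against M2 → M2. The labels call the libraries biological replicates but name no animals, so p-values measure spread between cultures. That spread was pooled within conditions over all libraries, and is not that of the 6 compared libraries alone. For Prc1 the adjusted p was 5.05e-09 in this fit and 0.138 in a fit of the 6 libraries alone. For Myd88 it was 0.162 and 0.0347.

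The replicate numbers are in the labels. Deviations of same-numbered M1 → M2 and M1 → M0 libraries from their group means correlated at 0.681, 0.672 and 0.557, so the numbers were taken to pair the samples. The M0 libraries did not pair in this way. Alternatives were other pseudocounts (0.1 and 10 FPKM), a filter on low values, no trend, median centring, quantile normalization, replicate blocks, a fit of the compared libraries alone and leaving out each library. Leaving replicate 1 out of every condition, and averaging M0 libraries 1 with 2 and 3 with 4 because 1 and 2 lay closest together, were chosen after seeing the data. Some withheld items are not reported here.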

Additional observations from a re-analysis of the deposited data

Results flagged for a closer look

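The IL-4 effect differed between 72 h and 24 h for 95 genes by the interaction test. Positive terms were those of Retnla (3.36 on the log2 scale), Chi3l3 (2.06), Lipn (1.45), Maoa (1.05), Creg1 (1.01) and Idh1 (0.80). Negative terms were those of Prc1 (-2.54), Ly6a (-2.29), Ccnb2 (-2.17), Pbk (-2.07), Ube2c (-2.03) and Spc25 (-1.99). The Maoa term came with a decrease at 24 h (11.8 FPKM in M1 → M2 cells against 20.9 FPKM in M1 → M0 cells, log2 difference -0.79, adjusted p = 0.00178) and no call at 72 h (13.5 FPKM in M1 → M2 cells and 11.2 FPKM in M1 → M0 cells, 0.26, adjusted p = 0.432). Without M1 → M2 replicate 1, Ccnb2 was -1.52 (adjusted p = 0.142), Pbk -1.41 (0.116) and Ube2c -1.22 (0.501), none past the test, and Prc1 was -1.85, while without M1 → M0 replicate 1 Ccnb2 was -3.21 and Ube2c -3.15. Retnla was 4.76 without M1 → M2 replicate 1 and 2.59 without M1 → M2 replicate 2, the lower value not past the test. Over the 12 fits that left out 1 library, the call was lost in 10 for Retnla, 8 for Chi3l3, 8 for Ube2c, 6 for Maoa, 3 for Ccnb2, 3 for Pbk and 1 for Spc25, and in 0 for Lipn, Creg1, Idh1, Prc1 and Ly6a. None of these 12 genes passed the test in a fit of the 12 libraries alone.

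The IL-4 effect differed between cells with and without an M1 past for 585 genes by the interaction test, or 419 with M0 libraries 1 and 2 averaged and 3 and 4 averaged. Positive terms were 3.93 for Ednrb, 3.23 for Stab1, 3.06 for Gpr34, 2.73 for Clec4d, 2.63 for Ms4a6b, 2.56 for Ly6e, 2.33 for Maf, 2.32 for Fcgr2b and 2.25 for Slc40a1. Negative terms were -9.25 for Ear11, -8.91 for Retnla, -6.70 for Ccl24, -4.50 for Rbp4, -4.21 for H2-Aa, -4.09 for Aqp9, -3.91 for Mgl2, -3.46 for Cd74, -3.15 for Flt1, -2.84 for Irf4, -2.47 for Asns and -2.42 for Chi3l3.

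In the 4 M0 libraries, 1 library lay far from the others for Aqp9 (0.32 FPKM) and 1 for Flt1 (0.339 FPKM), by Dixon's criterion. Chance flags about 1 in 20 such groups.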

How the results depend on the processing

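Of 156 results for single genes, 149 passed the test, and 113 kept their direction and their side of the threshold under every alternative run. The 1 reversal was Arg1 between M1 → M2 and M2 → M2 cells, which did not pass the test and was 0.064 without replicate 1. With a replicate block in the 6 libraries alone, 1510 genes were higher and 1224 lower in M1 → M2 than in M1 → M0 cells, and without a block 414 were lower in those libraries. Leaving out 1 library gave 534 to 658 higher and 520 to 693 lower genes. The 95 genes of the 72 h against 24 h interaction became 33 with a pseudocount of 0.1 FPKM, 186 with 10 FPKM, 143 after quantile normalization, 210 with the replicate block, 2 in the 12 libraries alone, 398 without replicate 1 of any condition and 12 to 266 without 1 library. Median centring moved the share of positive terms there to 26.5%, against 16.8%. The 585 genes of the interaction with an M1 past became 1021 with the replicate block, 988 with the block in those libraries alone, 1096 without replicate 1 and 453 to 750 without 1 library. M1 → M0 against M0 cells gave 949 genes with the block in those libraries alone, 895 with the M0 libraries averaged in pairs (1 with 2, 3 with 4) and 1006 to 1406 without 1 library, against 1488. M1 → M2 against M2 → M2 cells gave 1283 to 1564 and M2 → M2 against M0 cells 2386 to 2728 without 1 library. The 3 genes at 1 h became 1 with a pseudocount of 0.1 FPKM and 5 with 10 FPKM. The cause of these changes was not tested. With no read counts, depth sets no stated limit on low values.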
